A study of Ovis aries with 24 samples.

Results

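RNA sequencing was used to compare 2 organs of preterm lambs that were never ventilated: the liver and the periventricular white matter (PVWM), which lines the fluid-filled ventricles of the brain. All 8 unventilated libraries of the study's 24 were taken, 4 of liver and 4 of PVWM, over the gene rows that the 2 deposited tables share. The lambs (Ovis aries) were labelled as not ventilated and given no treatment. In each tissue 2 lambs were of 127 days and 2 of 128 days of gestation, and 2 were labelled male, 1 female and 1 had no sex given. The 8 libraries came from 5 animals, of which 057, 058 and 060 gave both tissues, 059 gave liver only and 061 gave PVWM only. The rest of the study consists of ventilated lambs, 4 per tissue with intratracheal Poractant alpha, a porcine lung surfactant, at 2.5 mL/kg, and 4 per tissue with the same surfactant plus Budesonide, a synthetic glucocorticoid, at 0.25 mg/kg. In each ventilated group 3 lambs were of 126 days and 1 of 127 days, 3 were labelled female and 1 male, and all 4 gave both tissues. Each library came from whole tissue, not from sorted cells, so every value is an average over the cell types present. Lower levels of a cell type's RNA through fewer such cells and through less RNA per cell cannot be told apart.

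The fetal liver is both a gland and a blood-forming organ. Its hepatocytes secrete most plasma proteins, including the fetal protein alpha-fetoprotein, while erythroid precursors mature around them until the bone marrow takes over. The periventricular white matter of a preterm lamb is in the middle of building its myelin: oligodendrocyte precursors differentiate, astrocytes and late radial glia surround them, and axons of cortical neurons pass through. Comparing both organs before any ventilation gives the reference state of each tissue and the level at which the RNA of each is absent from the other.

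Total counts per library ran from 16391729 to 19404869 in liver and from 15698434 to 16125191 in PVWM, and p-values measure the spread between separate lambs within each tissue. Counts were concentrated in liver, where the 10 leading genes took 28.3 to 30.1% of a library, against 2.58 to 2.68% in PVWM. Levels are given as CPM, counts per 1000000 of the scaled library size, which in liver was 0.775 to 0.821 times the total and in PVWM 1.23 to 1.253 times. Values per library follow the order of animals 057, 058, 059 and 060 in liver and 057, 058, 060 and 061 in PVWM. The log2 differences are liver minus PVWM, so a positive value is higher in liver, and ± marks the standard error (SE) of a difference and the SD over 4 animals of a mean. Because each tissue has its own deposited table, a difference in library handling between the tables and a difference between the tissues cannot be told apart.

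The labelled tissues were checked against defining markers. The hepatocyte markers ALB, AFP, TTR, APOB, CPS1 and HNF4A were all higher in liver, and the glial and neuronal markers OLIG2, SOX10, MBP, AQP4, SLC1A3, SNAP25, SYT1 and STMN2 were all higher in PVWM. The myelin markers MOG and MAG were also called higher in PVWM, MAG with overlapping ranges. The choroid plexus markers KCNJ13 and CLIC6 were near 0 in PVWM, at 0.309 to 2.15 and 0.35 to 0.512 CPM. One label went against the data. LOC101112291 is a non-coding RNA locus annotated near CHIC1 on the X chromosome in ARS-UI_Ramb_v3.0. It had 2 counts in the library labelled liver 059, which is labelled female. The other 13 libraries labelled female had 12691 to 27771 counts of it, and the 8 labelled male had 1 to 310. The same locus had 21728 counts in liver 060 and 57 in PVWM 061, libraries for which no sex is given. The PVWM library of animal 060 is labelled female and had 12691 counts, so both libraries of that animal were high. Whether the label or the sample of liver 059 is at fault was not tested. Liver 059 also lay apart from the other livers on the second principal component of the 8 libraries, at -56.9 against 4.46 to 38.88, an axis with 1.32% of the variance where the first, which separated the tissues, had 95.67%. For several lists and genes in which liver 059 was the extreme library, values without it or those of the other 3 livers are therefore given. No list values without it are given for lipid, bile acid and drug metabolism, where 12 of 18 members were highest in liver 059. The same holds for glucocorticoid and thyroid hormone handling, with 11 of 22 members, and for gluconeogenesis and glycogen, with 9 of 16.

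The 2 tissues differed in most of their genes. Of 18672 genes tested, 15168 (81.2%) passed the threshold of an edgeR adjusted p of 0.05, with 7148 (38.3%) higher in liver and 8020 (43.0%) higher in PVWM. Past a fold of 2, tested as a minimum, were 9538 genes (51.1%), 3998 higher in liver (21.4%) and 5540 higher in PVWM (29.7%). The median absolute log2 difference was 1.34, and the median difference was -0.09. In 93.9% of the called genes the CPM ranges of the 2 tissues did not overlap. With calls this common, the count of a gene list below is read against 38.3% of all tested genes higher in liver and 43.0% higher in PVWM. Without liver 059 the calls were 7389 and 8075. With library totals as the only scaling, the median moved to -0.72 and the calls to 4631 higher in liver and 10741 higher in PVWM, so that 30.1% in place of 47.1% of calls were higher in liver.

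Extreme differences were more numerous on the PVWM side while liver held its counts in fewer genes. With genes of 3 or fewer counts in the lower tissue set at 3 counts over its 4 libraries, 500 called genes were over 100-fold higher in liver and 1017 in PVWM, and 151 and 198 were over 1000-fold higher. Genes past 2-fold higher in liver held 65.8 to 68.4% of the counts of a liver library and 6.35 to 6.74% of a PVWM library. Genes past 2-fold higher in PVWM held 50.9 to 51.2% of the counts in PVWM and 3.62 to 4.0% in liver. By counts alone, 317 genes had at least 10 counts in every liver library and at most 3 over the 4 PVWM libraries, and 1022 had the reverse pattern. Of these, 158 and 488 carry a gene symbol.

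**Figure D1:**
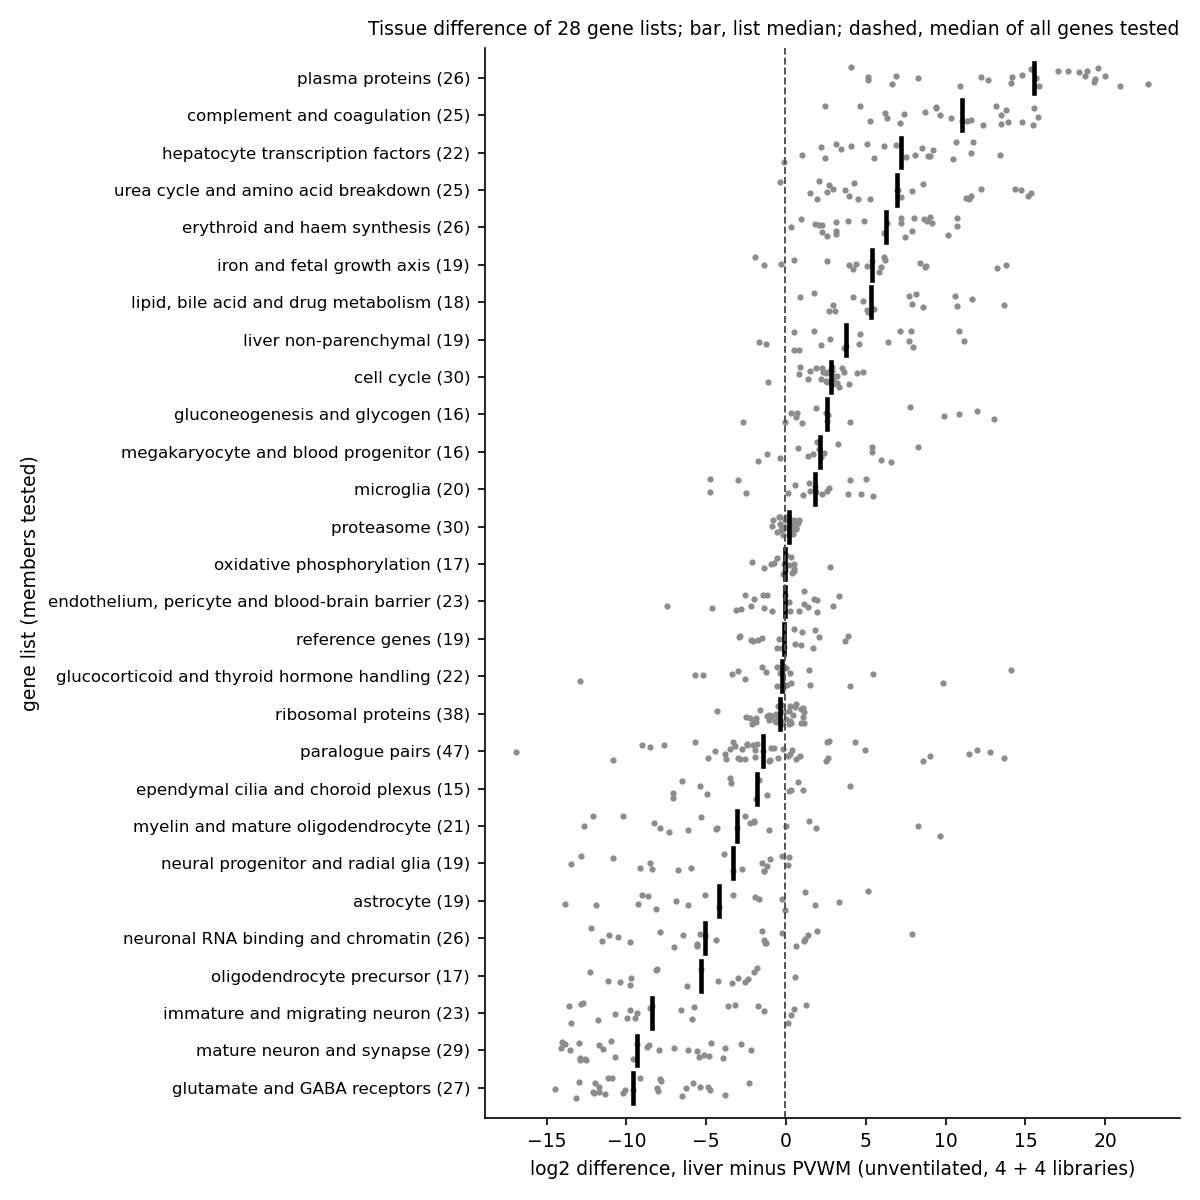
Log2 difference between unventilated liver and PVWM (x axis, liver minus PVWM) for every tested member of 28 gene lists (y axis). Each grey point is 1 gene from 4 liver and 4 PVWM libraries, the black bar is the list's median and the dashed line the median of all 18672 genes tested at -0.09; differences of genes with 3 or fewer counts in a tissue are fitted values that depend on the prior count. Medians run from 15.52 for plasma proteins to -9.59 for glutamate and GABA receptors.

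Plasma proteins had the largest median difference of the 28 lists. All 26 members were called higher in liver, with a median log2 difference of 15.52 against -0.09 over all genes tested, or 15.02 with the 12 members of 3 or fewer PVWM counts set at 3. Liver 059 was the highest liver for 22 of the 26, and without it all 26 were called with a median of 15.47. Albumin (ALB), the main carrier protein of plasma, stood at 90810, 88030, 106200 and 87610 CPM in liver and 4.3, 1.6, 4.12 and 3.2 CPM in PVWM, 28200-fold apart (log2 14.78 ± 0.40, edgeR adjusted p = 1.83e-10). Fetuin-A (AHSG), a mineral-binding plasma protein abundant in fetal life, stood at 140300, 118200, 144900 and 125900 CPM against 0.154, 0.825, 0 and 0.2 CPM (log2 18.75 ± 0.67, edgeR adjusted p = 1.01e-09). The liver libraries lay close together for both genes, and no PVWM library reached 5 CPM.

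Several secreted proteins had no count at all in PVWM. SERPINA1, the protease inhibitor alpha-1 antitrypsin, stood at 41060, 45930, 55880 and 53820 CPM in liver and at 0 in all 4 PVWM libraries, at least 1288000-fold higher where the 4 PVWM libraries together are set at 3 counts, the bound used for every such fold (edgeR adjusted p = 1.08e-09). The fibrinogen alpha chain (FGA) was at least 378400-fold higher, the lipoprotein protein APOB at least 195300-fold, the fetuin relative FETUB at least 148600-fold and APOA2 at least 129900-fold, each with 0 counts in PVWM. Vitronectin (VTN), the histidine-rich glycoprotein HRG and the chemokine CCL16 also had no PVWM count, and VTN and HRG were lowest in liver 058, at 5646, 2577, 5024 and 5371 CPM of VTN and 1268, 469.8, 1508 and 1384 CPM of HRG. The fibrinogen gamma chain (FGG) had 1 count over the PVWM libraries and was 543600-fold (95% counting interval 95550 to 21030000) higher in liver.

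Alpha-fetoprotein (AFP), the albumin relative of the fetus, varied between livers. It stood at 4177, 2977, 672 and 2826 CPM in liver, lowest in 059, and had 1 count over the 4 PVWM libraries. The level in liver was 213000-fold (95% counting interval 38740 to 8525000) that in PVWM, with an edgeR adjusted p of 2.36e-08. The 3 other livers were 2826 to 4177 CPM, so the lowest liver was the one whose sex label went against the data. Transthyretin (TTR), the thyroxine and retinol-binding protein carrier, was the plasma protein with an uneven level in PVWM, at 2.25, 6.34, 117 and 2.5 CPM against 3483, 2620, 4137 and 2526 CPM in liver (log2 6.63 ± 1.31, edgeR adjusted p = 0.000724). The PVWM library of animal 060 held the high value, and without it the log2 difference was 9.75. TTR is also a product of the choroid plexus, and KCNJ13 and CLIC6, the other choroid plexus markers listed, were at 0.358, 0.309, 1.81 and 2.15 and 0.512, 0.361, 0.502 and 0.35 CPM in the same PVWM libraries.

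Complement and coagulation factors followed the plasma proteins, with all 25 members called higher in liver and a median log2 difference of 11.05. Liver 059 was the highest liver for 21 of the 25, and without it all 25 were called with a median of 11.03. C3, the central complement component, was at 662 ± 80.7 CPM in liver and 26.9 ± 4.8 CPM in PVWM (24.6-fold, log2 4.62 ± 0.16, edgeR adjusted p = 1.03e-09). It was one of the few members with a clear level in PVWM, whereas the pore-forming component C8A and the clotting subunit F13B had no count there and were at least 5371-fold and at least 10860-fold higher in liver. MBL2, the mannose-binding lectin that starts complement on microbial sugars, fell into 2 levels among the livers, 162, 147, 573 and 481 CPM, high in the 128-day animals 059 and 060 and low in the 127-day animals 057 and 058. It had no count in PVWM.

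Hepatocyte transcription factors, which set the liver programme, were higher in liver in 21 of 22 members with a median log2 difference of 7.21. HNF4A, the nuclear receptor at the centre of that network, was at 660.4, 469.5, 805 and 613 CPM in liver and 0, 0.0515, 0.151 and 0 CPM in PVWM (log2 13.42 ± 0.41, edgeR adjusted p = 3.63e-10). The ranges were far apart, and 2 PVWM libraries had no count. The pioneer factor FOXA2 and the corepressor NR0B2 had no count in PVWM and were at least 652-fold and at least 264-fold higher in liver. The xenobiotic receptor NR1I2 and the bile acid receptor NR1H4 differed by log2 11.60 ± 0.28 and 10.65 ± 0.32 (edgeR adjusted p = 9.36e-11 and 3.63e-10). ZHX2, named in mice as a repressor of AFP after birth, was the exception, at 20.4 ± 3.39 CPM in liver and 22.3 ± 2.48 CPM in PVWM (log2 -0.12 ± 0.14, edgeR adjusted p = 0.449), and with library totals only it was called higher in PVWM.

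The urea cycle, which turns ammonia into urea, was on the liver side. Of 25 genes of the urea cycle and amino acid breakdown 24 were higher in liver, with a median log2 difference of 6.93. Liver 059 was the highest liver for 18 of the 25, and without it 24 were called with a median of 6.87. CPS1, the mitochondrial enzyme that fixes ammonia, was at 3594, 3539, 4936 and 3924 CPM in liver and 0.154, 0.155, 0 and 0.05 CPM in PVWM (log2 15.34 ± 0.37, edgeR adjusted p = 9.71e-11). OTC, the next enzyme of the cycle, had no count in PVWM and was at least 6864-fold higher. Later enzymes were present in both tissues: ASS1 was at 469.7 ± 111 against 3.23 ± 0.397 CPM and ASL at 142 ± 18.9 against 6.32 ± 0.492 CPM (log2 7.18 ± 0.22 and 4.49 ± 0.13, edgeR adjusted p = 3.72e-10 and 3.29e-10). SDS, serine dehydratase, was the 1 member not called, at 6.06, 11.7, 6.63 and 4.43 CPM in liver and 11.1, 11.7, 6.72 and 8.85 CPM in PVWM (log2 -0.41 ± 0.29, edgeR adjusted p = 0.216), and without liver 058 it was called higher in PVWM (log2 -0.69, edgeR adjusted p = 0.022).

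Most glucose release enzymes were higher in liver. In the list of gluconeogenesis and glycogen 13 of 16 members were higher in liver and 1 in PVWM, with a median log2 difference of 2.55. G6PC, glucose-6-phosphatase, the last step of glucose release, stood at 52.5, 61.6, 70.2 and 62.5 CPM in liver and had no count in PVWM (at least 1615-fold higher, edgeR adjusted p = 6.74e-09). PCK1, the cytosolic form of the rate-limiting enzyme, stood at 57.5, 33.3, 44.1 and 13.8 CPM in liver with 1 count over the PVWM libraries, and its mitochondrial relative PCK2 at 142, 117, 107 and 124 CPM against 9.37, 6.44, 5.77 and 8.4 CPM (log2 4.03 ± 0.17, edgeR adjusted p = 4.37e-09). PCK1 thus ran from 13.8 to 57.5 CPM between livers, lowest in 060, while PCK2 ran from 107 to 142 CPM. GPT, alanine aminotransferase, was the member higher in PVWM, at 26.2 ± 3.89 CPM against 4.07 ± 1.25 CPM (log2 -2.67 ± 0.22, edgeR adjusted p = 7.45e-07). GOT1 and the coactivator PPARGC1A were not called, and with library totals only 11 members were higher in liver and 2 in PVWM.

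In the list of lipid, bile acid and drug metabolism, all 18 members tested were higher in liver, with a median log2 difference of 5.32. ABCB11, the bile salt export pump, was at 673 ± 126 CPM in liver and 0.431 ± 0.153 CPM in PVWM (log2 10.58 ± 0.27, edgeR adjusted p = 1.21e-10), and the bile acid uptake carrier SLC10A1 at 96, 58.7, 167 and 70.9 CPM against 3.53, 3.97, 3.26 and 3 CPM (log2 4.83 ± 0.34, edgeR adjusted p = 1.98e-07). Liver 059 had the highest SLC10A1, and without it the difference was 4.48. FABP1, the liver fatty acid binding protein, had 1 count over the PVWM libraries and was 20330-fold (95% counting interval 3640 to 801100) higher in liver.

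Erythroid RNA was high in every unventilated liver. Of 26 genes of the erythroid and haem synthesis list 25 were higher in liver, with a median log2 difference of 6.23, and the summed level of the list was 1908 to 7774 CPM in liver against 404 to 505 CPM in PVWM. SLC4A1, the anion exchanger of the red cell membrane, stood at 523, 1024, 119 and 565 CPM in liver and 1.33, 0.619, 0 and 0.05 CPM in PVWM (log2 10.11 ± 0.93, edgeR adjusted p = 1.97e-06). ALAS2, the erythroid enzyme that starts haem synthesis, stood at 337, 678, 95 and 384 CPM against 1.69, 2.89, 0.402 and 0.75 CPM (log2 8.03 ± 0.74, edgeR adjusted p = 1.89e-06). In both genes liver 058 was highest and liver 059 lowest, and all livers were above all PVWM libraries.

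Of the 26 tested erythroid genes, 25 were highest in liver 058 and 25 lowest in liver 059. HEMGN, an erythroid nuclear factor, stood at 408, 683, 120.3 and 478 CPM, the ammonium transporter relative RHAG at 142, 257, 41.6 and 192 CPM and AHSP, which stabilises alpha globin, at 228, 395, 54.1 and 215 CPM. Without liver 059 the list's median log2 difference was 6.55 and 25 of 26 members were called. TMOD1, a red cell membrane skeleton protein also present in neurons, was the member not called, at 43.2, 58.7, 27.9 and 48.1 CPM in liver and 25.4, 61.8, 28.4 and 28.6 CPM in PVWM (log2 0.31 ± 0.30, edgeR adjusted p = 0.367). Without the high PVWM 058 it was called higher in liver (log2 0.69, edgeR adjusted p = 0.0144), and with the animal as a block likewise (adjusted p = 0.0416). Among the leading liver genes by count were 2 unnamed loci annotated within the globin clusters of ARS-UI_Ramb_v3.0. LOC101106199, in the neighbourhood of HBB, stood at 10660, 29500, 4398 and 12250 CPM in liver and 99.8, 209, 36.4 and 71 CPM in PVWM, and LOC101108797, between HBM and HBQ1, at 10320, 17960, 2569 and 12740 CPM and 139, 161, 49.5 and 67.7 CPM. Near-identical globin genes can share reads, so the split between such loci is uncertain, but both were highest in animal 058 in each tissue and lowest in liver 059 and PVWM 060.

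Cell cycle genes were higher in liver in 29 of 30 members, with a median log2 difference of 2.82. MKI67, a marker of dividing cells, stood at 465, 899, 144 and 477 CPM in liver and 20.3, 17.7, 14.9 and 17.7 CPM in PVWM (log2 4.81 ± 0.48, edgeR adjusted p = 3.53e-06). RRM2, which makes deoxynucleotides for replication, stood at 199, 284, 52 and 164 CPM against 7.58, 8.09, 7.73 and 8.7 CPM (log2 4.44 ± 0.44, edgeR adjusted p = 3.46e-06). All 30 members were highest in liver 058 and lowest in liver 059, while the PVWM libraries lay within a narrow range. The summed level of the 30 genes was 778 to 3092 CPM in liver and 281 to 320 CPM in PVWM. Without liver 059 the median was 3.15 and MKI67 differed by 5.16. CDT1, a replication licensing factor, was the 1 member higher in PVWM, at 49.8 ± 12.8 CPM against 22.6 ± 6.39 CPM (log2 -1.14 ± 0.23, edgeR adjusted p = 0.00098). Erythroid and cell cycle genes ordered the livers alike at both ends, and the part of erythroid precursors in the cell cycle difference was not tested.

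**Figure D2:**
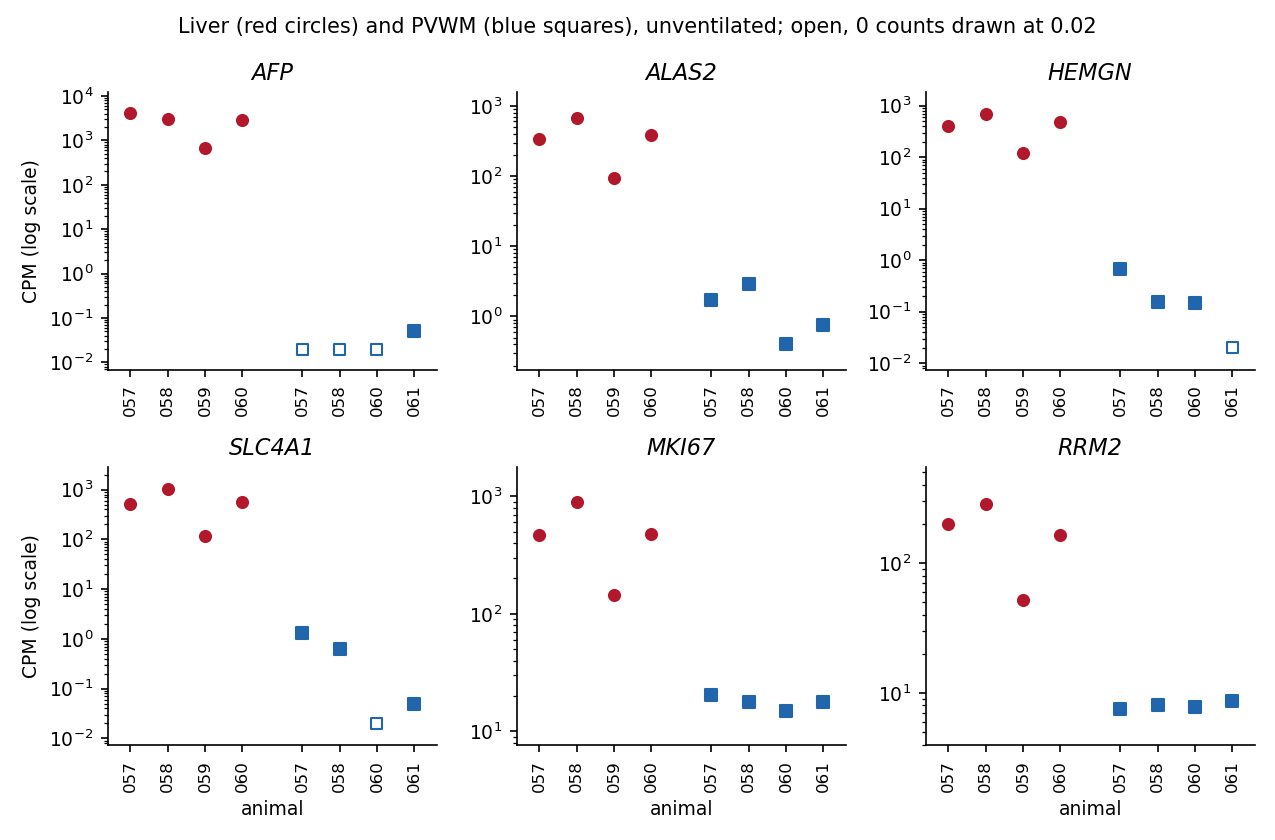
CPM (y axis, log scale) of AFP, ALAS2, HEMGN, SLC4A1, MKI67 and RRM2 in each of the 4 liver and 4 PVWM libraries (x axis, by animal). Points are single libraries, and open squares are libraries with no count, drawn at 0.02 CPM. In the 5 blood and cell cycle genes liver 058 is highest and liver 059 lowest, and PVWM stays below all livers.

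Megakaryocyte and blood progenitor genes were higher in liver in 12 of 16 members tested, with a median log2 difference of 2.12. GP1BA, the platelet receptor for von Willebrand factor, was at 96.2 ± 15 CPM against 0.992 ± 0.365 CPM (log2 6.59 ± 0.24, edgeR adjusted p = 1.06e-09), and MPO, the peroxidase of myeloid granules, at 12.7, 22.3, 3.95 and 7.02 CPM against 0.717, 0.103, 0 and 0.25 CPM (log2 5.40 ± 0.77, edgeR adjusted p = 6.31e-05). KIT, the stem cell factor receptor that blood progenitors and neural cells both use, was higher in PVWM, at 104 ± 17.9 CPM against 30.9 ± 4.01 CPM (log2 -1.76 ± 0.15, edgeR adjusted p = 1.1e-06). The transcription factor HLF was also higher in PVWM (log2 -1.20 ± 0.22, edgeR adjusted p = 0.000454).

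Sinusoidal, stellate, biliary and Kupffer cell genes were higher in liver in 15 of 19 members, with a median of 3.78. STAB2, the hyaluronan receptor of sinusoidal endothelium, was at 219.5 ± 39.7 CPM against 0.953 ± 0.152 CPM (log2 7.84 ± 0.19, edgeR adjusted p = 1.1e-10), and the macrophage proteins CD5L and MARCO stood at 27.3, 12, 15 and 10.8 and 33.1, 30.4, 54.5 and 26.1 CPM in liver with 0 and 1 counts over the PVWM libraries. SOX9, a factor of bile duct cells and of astroglia, was higher in PVWM, at 84 ± 5.2 CPM against 26.1 ± 4.93 CPM (log2 -1.68 ± 0.14, edgeR adjusted p = 9.32e-07). LRAT, which stores retinol in stellate cells, was also higher in PVWM (log2 -1.28 ± 0.35, edgeR adjusted p = 0.00585), but not with the animal as a block (log2 -0.97, edgeR adjusted p = 0.0597).

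Iron handling and the fetal growth axis were higher in liver in 16 of 19 members, with a median of 5.36. HAMP, the iron hormone hepcidin, stood at 61.9, 55, 119.5 and 46.2 CPM in liver, highest in 059, and had no count in PVWM (at least 1797-fold higher, edgeR adjusted p = 1.05e-06). IGF2, the main fetal growth factor, stood at 1777, 1587, 2009 and 1921 CPM against 1.95, 2.42, 3.76 and 9.25 CPM (log2 8.71 ± 0.51, edgeR adjusted p = 4.58e-08). DLK1, an imprinted fetal protein, was at 338 ± 49.1 CPM against 0.756 ± 0.441 CPM (log2 8.78 ± 0.34, edgeR adjusted p = 1.86e-09), and the non-coding RNA GTL2 of the same imprinted domain lay the other way, at 285 ± 43.4 CPM in liver and 2120 ± 58.2 CPM in PVWM (log2 -2.90 ± 0.13, edgeR adjusted p = 7.23e-09). FTH1, the ferritin heavy chain, was higher in PVWM at 521 ± 48.6 CPM against 133 ± 17 CPM (log2 -1.97 ± 0.12, edgeR adjusted p = 8.38e-08). LIN28B, a fetal RNA-binding protein, was called higher in PVWM with overlapping ranges, 5.48, 4.54, 11.5 and 6.9 CPM against 3, 5.04, 0.789 and 2.21 CPM (log2 -1.35 ± 0.46, edgeR adjusted p = 0.019). Its call was lost with the animal as a block (log2 -1.01, edgeR adjusted p = 0.0692) and without liver 060 or PVWM 060 (log2 -1.21 and -1.03).

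RNA of both precursor and myelin-forming stages of the oligodendrocyte lineage was present in PVWM. Of 17 precursor genes 16 were higher in PVWM, with a median log2 difference of -5.34. OLIG2, the lineage's master regulator, stood at 20.7, 16.1, 10.7 and 19.4 CPM in PVWM and 0 in every liver, at least 325-fold higher (edgeR adjusted p = 6.45e-07). NKX2-2 likewise had no liver count (at least 190.1-fold higher), and the perineuronal protein TNR had 1. PDGFRA, the growth factor receptor of precursors and of fibroblasts, was at 212, 176, 178 and 208 CPM in PVWM and 45.5, 48, 74 and 55.7 CPM in liver (log2 -1.80 ± 0.16, edgeR adjusted p = 1.4e-06). SOX6 was the member not called, at 57.8, 110.3, 25.6 and 78.6 CPM in liver and 44.5, 41.5, 49.5 and 49.4 CPM in PVWM. SOX6 is also an erythroid factor, and its livers were ordered as in ALAS2, with 058 highest and 059 lowest. Without liver 059 it was called higher in liver (log2 0.86, edgeR adjusted p = 0.00194), and with the animal as a block likewise (log2 0.82, edgeR adjusted p = 0.00434).

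Myelin genes were higher in PVWM in 16 of 21 members and higher in liver in 3, with a median of -3.1, and they separated 1 PVWM library from the others. MBP, the myelin basic protein, stood at 661, 603, 204 and 594 CPM in PVWM and 1.91, 2.32, 2.29 and 2.21 CPM in liver (log2 -7.88 ± 0.41, edgeR adjusted p = 1.95e-08). Animal 060 was the lowest of the 4, and the other 3 animals lay close together.

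The low library recurred in MOBP, at 342, 333, 85 and 307 CPM, in MOG, at 8.5, 9.33, 3.06 and 9.6 CPM, and in MAG, at 49.4, 45, 11.8 and 40 CPM. The summed level of the 21 genes was 865 CPM in PVWM 060 against 2126 to 2328 CPM in the other PVWM libraries. In PVWM, 19 of the 21 myelin genes were lowest in 060. The library was also lowest for 11 of 17 precursor, 13 of 19 progenitor and radial glia, 11 of 19 astrocyte and 11 of 15 ependymal genes. Lists of other cells were mixed. It was lowest for 10 of 18 lipid and bile acid, 10 of 23 endothelium and barrier and 11 of 26 erythroid genes. The shares were 5 of 29 for mature neurons, 3 of 23 for immature neurons and 3 of 20 for microglia. PVWM 060 had 21650 genes with a count, against 22107 to 22218 in the other PVWM libraries. The share over all genes was not counted. The summed level of the precursor genes was 1456 CPM in 060 against 1581 to 1925 CPM in the others. MAG stood at 10.2, 4.51, 9.47 and 12 CPM in liver, so that PVWM 060 overlapped the liver range. Leaving PVWM 060 out moved the difference of MBP to -8.15 and that of MAG from -2.01 to -2.31, and 16 and 3 members were called. With the animal as a block the call of MAG was lost (log2 -1.86, edgeR adjusted p = 0.0629). ERMN, a late myelin protein, had no count in liver and was at least 169.7-fold higher in PVWM.

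Of the myelin list, 3 members were higher in liver. TF, transferrin, which both hepatocytes and oligodendrocytes make, was at 17150 ± 1174 CPM in liver and 55 ± 8.03 CPM in PVWM (log2 8.28 ± 0.18, edgeR adjusted p = 6.95e-11). GJB1, connexin 32, which forms gap junctions in hepatocytes and in myelin, was at 524 ± 60.4 CPM against 0.658 ± 0.278 CPM (log2 9.62 ± 0.25, edgeR adjusted p = 1.5e-10). MYRF, the transcription factor that switches on myelin genes, was at 51.1, 48.7, 63.5 and 58 CPM in liver and 20.1, 14.9, 8.18 and 17.4 CPM in PVWM (log2 1.87 ± 0.23, edgeR adjusted p = 2.38e-05), again lowest in PVWM 060.

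**Figure D3:**
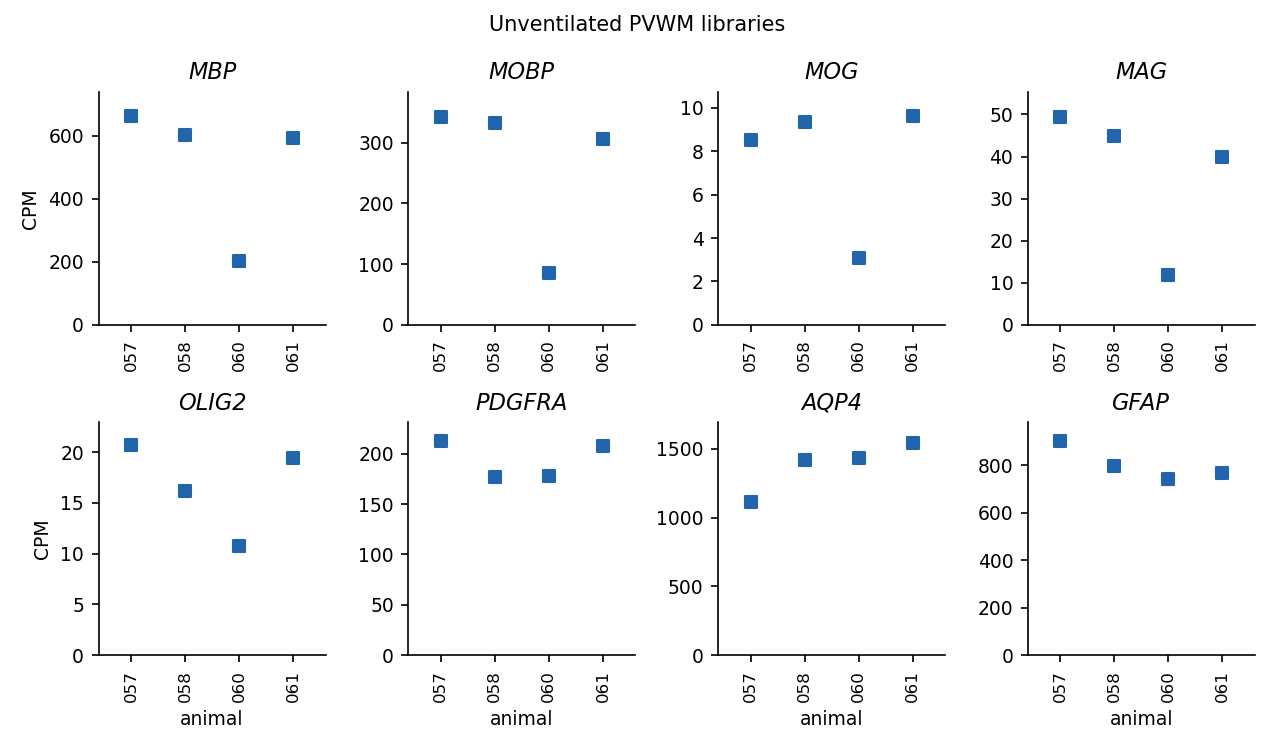
CPM (y axis, linear from 0) of MBP, MOBP, MOG and MAG (myelin), OLIG2 and PDGFRA (precursor), AQP4 and GFAP (astrocyte) in the 4 PVWM libraries (x axis, by animal). Points are single libraries. Animal 060 is lowest for the 4 myelin genes, with MBP at 203.6 against 594 to 661 CPM, and also for OLIG2 and GFAP.

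Astrocyte genes were higher in PVWM in 13 of 19 members and in liver in 4, with a median of -4.23. AQP4, the water channel of astrocyte endfeet, stood at 1117, 1421, 1434 and 1546 CPM in PVWM and 0.136, 0, 0.158 and 0.0633 CPM in liver (log2 -13.85 ± 0.32, edgeR adjusted p = 7.29e-11). GFAP, the astrocyte intermediate filament, stood at 899.9, 798, 742 and 768 CPM against 1.57, 3.31, 0.316 and 2.66 CPM (log2 -8.64 ± 0.45, edgeR adjusted p = 1.71e-08), and the glutamate transporter SLC1A3 at 870.1, 1161, 915 and 978 CPM against 1.97, 1.72, 0.868 and 1.58 CPM (log2 -9.30 ± 0.24, edgeR adjusted p = 1.31e-10). The lowest PVWM library was 057 for AQP4 and SLC1A3 and 060 for GFAP, and no tissue ranges overlapped. GJB6, an astrocyte connexin, had no count in liver and was at least 537-fold higher in PVWM.

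The 4 astrocyte markers higher in liver were AGT, ALDH1L1, FGFR3 and NDRG2. AGT, angiotensinogen, a plasma protein that both hepatocytes and astrocytes make, was at 5869 ± 388 CPM in liver and 169.5 ± 11.6 CPM in PVWM (log2 5.11 ± 0.13, edgeR adjusted p = 1.2e-10). ALDH1L1, a folate enzyme used to label astrocytes, was at 263 ± 46.1 CPM in liver and 26.9 ± 2.98 CPM in PVWM (log2 3.29 ± 0.16, edgeR adjusted p = 8.88e-09). FGFR3 differed by log2 1.80 ± 0.12 (edgeR adjusted p = 1.88e-07).

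Progenitor and radial glia genes were higher in PVWM in 17 of 19 members tested, with a median of -3.32. SOX2, a stem cell factor of neural progenitors and glia, stood at 74.1, 86.9, 80 and 87.7 CPM in PVWM and 0 in liver (at least 1596-fold higher, edgeR adjusted p = 3.31e-09). FABP7, the fatty acid binding protein of radial glia, was at 103 ± 4.09 CPM against 0.267 ± 0.192 CPM (log2 -8.51 ± 0.25, edgeR adjusted p = 3.03e-10). EMX2 and FEZF2, cortical patterning factors, also had no liver count, and FEZF2 stood at 73.3, 52.8, 27.8 and 56.6 CPM, lowest in animal 060. HES1 and EOMES were not called.

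Neuronal transcripts were abundant in the samples labelled as white matter. All 29 tested members of the mature neuron and synapse list were higher in PVWM, with a median of -9.34 (-8.89 with genes at the bound of 3 counts), and their summed level was 12660 to 13050 CPM over the 4 animals against 173 to 276 CPM in liver. SNAP25, a fusion protein of synaptic vesicles, stood at 449, 700.4, 619 and 701 CPM in PVWM and 19.6, 10.7, 21.5 and 18.7 CPM in liver (log2 -5.13 ± 0.25, edgeR adjusted p = 1.09e-08). The vesicle sensor SYT1 stood at 426, 460.5, 481 and 445 CPM against 0.0681, 0.0663, 0 and 0.0633 CPM (fitted log2 -12.91, edgeR adjusted p = 4.92e-11). SYT1 had 3 or fewer counts over the livers, so the size of its difference is uncertain. SLC17A6, a vesicular glutamate transporter, and SLC32A1, the vesicular GABA transporter, had no count in liver and were at least 2481-fold and at least 1141-fold higher. The neuropeptide SST had 1 count over the livers, against 295, 303, 279 and 262 CPM in PVWM. The part of neurons from tissue beside the white matter in these values was not tested.

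Immature neuron genes were higher in PVWM in 19 of 23 members tested and higher in liver in 2, with a median of -8.41, or -6.52 with the 10 members of 3 or fewer liver counts at the bound. STMN2, a microtubule protein of growing axons, stood at 1649, 1922, 1787 and 1659 CPM in PVWM and 0, 0.53, 0 and 0 CPM in liver (log2 -13.57 ± 0.54, edgeR adjusted p = 2.24e-09). DCX, of migrating neuroblasts, stood at 292, 267, 329 and 271 CPM against 0.953, 0.199, 1.03 and 1.2 CPM (log2 -8.41 ± 0.30, edgeR adjusted p = 1.12e-09). NEUROD6, a factor of cortical projection neurons, had no liver count and was uneven in PVWM, at 71.5, 155, 35 and 68.8 CPM, highest in animal 058 and lowest in 060. The interneuron factors DLX1 and SP9 and the GABA-making enzyme GAD2 likewise had no liver count and were at least 142-fold, at least 91.6-fold and at least 508-fold higher in PVWM. The guidance molecules NRP1 and RELN were the 2 higher in liver, NRP1 at 142 ± 13.6 CPM against 59.6 ± 21.4 CPM (log2 1.26 ± 0.22, edgeR adjusted p = 0.000342) and RELN at 240 ± 19.6 CPM against 171 ± 36.8 CPM (log2 0.49 ± 0.16, edgeR adjusted p = 0.0132). RELN is also a product of hepatic stellate cells, and with library totals only it was not called and lay on the PVWM side.

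All 27 glutamate and GABA receptor genes were higher in PVWM, with a median of -9.59 (-9.15 at the bound). The AMPA receptor subunits GRIA1, GRIA2, GRIA3 and GRIA4 differed by log2 -6.25 ± 0.26, -10.88 ± 0.33, -3.81 ± 0.12 and -7.87 ± 0.32. GRIA1 stood at 8.65, 12.5, 5.76 and 6.64 CPM and GRIA3 at 11, 13.1, 12.2 and 14.2 CPM in liver, while GRIA2 and GRIA4 stayed under 0.5 CPM in every liver. The metabotropic receptor GRM5 and the kainate receptor subunits GRIK1 and GRIK3 had no liver count. GRM5 stood at 163, 196, 159 and 156 CPM in PVWM, at least 3264-fold higher.

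Further genes without a liver count led the PVWM side. BCAN, brevican, a matrix proteoglycan of brain, stood at 769, 552, 542 and 676 CPM and was at least 12320-fold higher. The synaptic proteins ATCAY, SYNPR, NCAM2, SYT4 and CADM2, the kinase activator CDK5R2 and the factor LMO3 had no count in liver either, and their bounds ran from 3686-fold for LMO3 to 4450-fold for ATCAY.

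In the list of neuronal RNA-binding and chromatin factors 19 of 26 members tested were higher in PVWM and 6 in liver, with a median of -5.08. The neuronal ELAV proteins ELAVL3 and ELAVL4 stood at 135, 123, 128 and 122 and 84.6, 167, 119.6 and 114 CPM in PVWM, with 3 and 2 counts over the livers, and CELF5 and SRRM3 had no liver count. PTBP1, the splicing repressor of non-neuronal cells, was at 245 ± 18.7 CPM in liver against 62.6 ± 3 CPM (log2 1.97 ± 0.10, edgeR adjusted p = 1.23e-08), and its neuronal relative PTBP2 at 84 ± 19.8 CPM in PVWM against 32.1 ± 4.98 CPM (log2 -1.39 ± 0.19, edgeR adjusted p = 3.83e-05). ESRP2, an epithelial splicing factor, was higher in liver by log2 7.89 ± 0.36 (edgeR adjusted p = 6.54e-09).

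Most genes of the microglia list were higher in liver, whose Kupffer cells are also macrophages. Of 20 members 15 were higher in liver and 4 in PVWM, with a median of 1.8, and the summed level was 1475 to 1723 CPM in liver against 342 to 379 CPM in PVWM. The 4 higher in PVWM were CX3CR1, P2RY12, TMEM119 and TREM2. P2RY12, a purine receptor used to tell microglia from other macrophages, stood at 27.2, 35.8, 39.5 and 35.1 CPM in PVWM and 1.91, 1.19, 0.71 and 1.14 CPM in liver (log2 -4.78 ± 0.24, edgeR adjusted p = 1.53e-08), and TMEM119 at 24.4, 18.5, 16.1 and 23 CPM against 4.49, 2.85, 3.71 and 3.61 CPM (log2 -2.48 ± 0.19, edgeR adjusted p = 4.67e-07). The complement gene C1QA, which macrophages of many tissues express, stood at 279, 286, 231 and 229.9 CPM in liver and 10.3, 10.6, 8.43 and 9.75 CPM in PVWM (log2 4.71 ± 0.14, edgeR adjusted p = 2.62e-10), and the mannose receptor MRC1 at 112, 93.9, 111 and 119 CPM against 4.25, 2.78, 3.26 and 3.15 CPM (log2 5.01 ± 0.15, edgeR adjusted p = 3.97e-10). The direction of the list's majority held with library totals only, with 14 members higher in liver.

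Vessel genes as a list were near the average of all genes. In the endothelium, pericyte and blood-brain barrier list 9 of 23 members were higher in liver and 11 in PVWM. Over all genes tested 38.3% were higher in liver and 43.0% in PVWM. The list's median was -0.05, against -0.09 over all genes, and moved to -0.68 with library totals only. The pan-endothelial genes PECAM1, CDH5 and KDR were higher in liver (log2 1.14 ± 0.11, 1.91 ± 0.10 and 1.14 ± 0.10; edgeR adjusted p = 2.88e-06, 1.98e-08 and 1.44e-06). FLT1, a VEGF receptor, was higher in PVWM by log2 -0.91 ± 0.10 (edgeR adjusted p = 8.98e-06). Transporters known from brain endothelium were divided. On the PVWM side, MFSD2A, which carries omega-3 lipids over the blood-brain barrier, was at 20, 19.8, 19.5 and 17.4 CPM in PVWM and 3.06, 1.99, 1.89 and 1.58 CPM in liver (log2 -3.16 ± 0.20, edgeR adjusted p = 8.58e-08), and the thyroxine transporter SLCO1C1 at 18.8, 21.3, 16.9 and 19.4 CPM against 0.34, 0, 0 and 0.0633 CPM (log2 -7.44 ± 0.46, edgeR adjusted p = 7.21e-08). The lactate transporter SLC16A1 was higher in liver, at 496 ± 136 CPM against 50.9 ± 7.48 CPM (log2 3.29 ± 0.22, edgeR adjusted p = 1.37e-07), and so was the efflux pump ABCG2, at 168 ± 30.6 CPM against 21.6 ± 1.3 CPM (log2 2.96 ± 0.14, edgeR adjusted p = 8.62e-09).

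Cilia genes of ependyma were higher in PVWM in 10 of 15 members tested and higher in liver in 2, with a median of -1.85. DNAH5, an outer dynein arm motor, stood at 37.5, 16.5, 18 and 23.4 CPM in PVWM and 0.408, 0, 0.237 and 0.0633 CPM in liver (log2 -7.06 ± 0.52, edgeR adjusted p = 3.05e-07). FOXJ1, the regulator of motile cilia, was not called and varied between livers, at 34.9, 4.51, 59.6 and 18.1 CPM in liver and 29.6, 10, 4.72 and 12 CPM in PVWM (edgeR adjusted p = 0.178). Without liver 058 it was called higher in liver (log2 1.49, edgeR adjusted p = 0.0317). It was not called without liver 059, the highest liver (log2 0.5, edgeR adjusted p = 0.496). With the animal as a block it was not called either (log2 0.36, edgeR adjusted p = 0.592). TMEM212 was higher in liver, at 42.3 ± 12.7 CPM against 2.58 ± 2.3 CPM (log2 4.03 ± 0.51, edgeR adjusted p = 2.52e-05).

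Paralogues, genes of 1 family that encode the same step, were often split between the tissues. Of 47 members 14 were higher in liver and 29 in PVWM, with a median of -1.43. The glucose transporter of liver, SLC2A2, was at 320.4 ± 71.9 CPM with 3 counts over the PVWM libraries, while the neuronal SLC2A3 was at 113 ± 11.3 CPM in PVWM against 18.7 ± 3.23 CPM (log2 -2.60 ± 0.15, edgeR adjusted p = 3.26e-08). SLC2A1, of red cells and brain vessels, was not called, at 188, 377, 102 and 128 CPM in liver and 173, 189, 152 and 167 CPM in PVWM (edgeR adjusted p = 0.553). Its liver values again ran highest in 058 and lowest in 059.

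Glycolytic enzymes of brain were on the PVWM side. ALDOC, the brain aldolase, was at 0.862 ± 0.496 CPM in liver and 463 ± 73.4 CPM in PVWM (log2 -9.04 ± 0.30, edgeR adjusted p = 6.42e-10). ALDOA was higher in PVWM by log2 -2.76 ± 0.12 (edgeR adjusted p = 5.17e-09). ENO2, the neuronal enolase, was 1917-fold higher in PVWM (log2 -10.85 ± 0.25, edgeR adjusted p = 7.29e-11), whereas the common ENO1 stood at 379 ± 39.8 CPM in liver and 345 ± 37.8 CPM in PVWM (log2 0.14 ± 0.12, edgeR adjusted p = 0.296). Of the phosphofructokinases, PFKM and PFKP were higher in PVWM (log2 -2.46 ± 0.29 and -3.22 ± 0.18) and PFKL was not called (log2 -0.19 ± 0.13, edgeR adjusted p = 0.197).

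Of the hexokinases, HK1 was higher in PVWM (log2 -1.96 ± 0.30, edgeR adjusted p = 0.0001). The glycogen synthase GYS2 was at 236 ± 44.7 CPM in liver with 4 counts over the PVWM libraries, and GYS1 at 37 ± 5.43 CPM in PVWM against 19.1 ± 3.3 CPM (log2 -0.95 ± 0.15, edgeR adjusted p = 0.000145). Of the glycogen phosphorylases PYGL was higher in liver (log2 2.52 ± 0.15, edgeR adjusted p = 5.01e-08), and PYGB and PYGM were higher in PVWM (log2 -3.52 ± 0.18 and -4.90 ± 0.22, edgeR adjusted p = 1.46e-08 and 4.95e-09).

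The fatty acid binding proteins, acetyl-CoA carboxylases and arginases were also split, and the methionine adenosyltransferases were not. Of the fatty acid binding proteins FABP1 was the liver form, and FABP3, FABP5 and FABP7 were higher in PVWM (log2 -4.45 ± 0.15, -2.86 ± 0.18 and -8.51 ± 0.25). The acetyl-CoA carboxylase ACACA was higher in PVWM and ACACB in liver (log2 -1.04 ± 0.13 and 2.62 ± 0.28, edgeR adjusted p = 1.73e-05 and 7.06e-06). The arginase ARG1 was at 1110 ± 147 CPM in liver and 0.382 ± 0.227 CPM in PVWM, and ARG2 at 10.8 ± 1.98 and 21.4 ± 1.09 CPM (log2 11.48 ± 0.30 and -0.99 ± 0.15, edgeR adjusted p = 1.33e-10 and 8.52e-05). MAT1A, which makes the methyl donor in hepatocytes, was higher in liver (log2 8.57 ± 0.21, edgeR adjusted p = 9.95e-11). MAT2A, its form in most cells, and CPT1A were also called higher in liver, by log2 0.64 and 0.87, and neither of these 2 was called with library totals only.

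**Figure D4:**
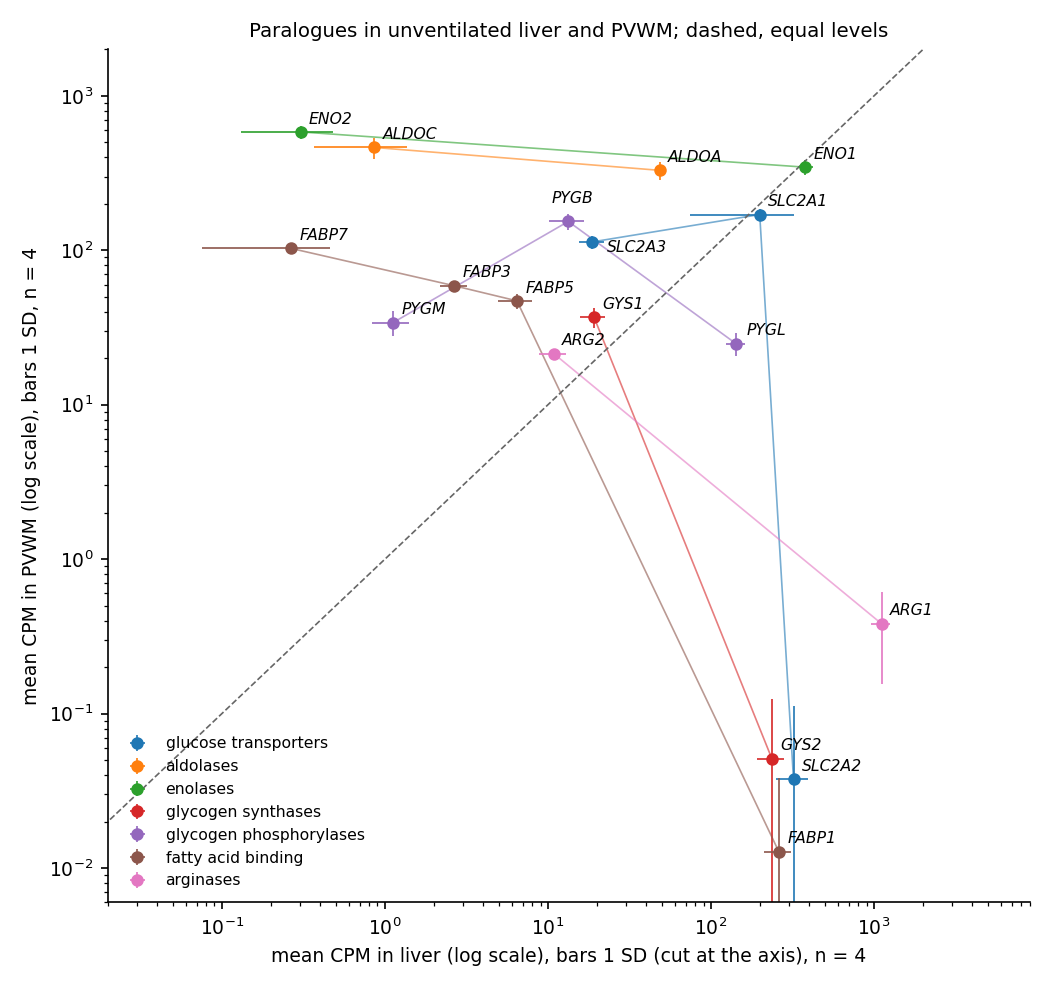
Mean CPM (log scale) of paralogues in liver (x axis) and PVWM (y axis), 4 libraries each, with bars of 1 SD and lines joining members of a family. Points below the dashed diagonal are higher in liver: SLC2A2, GYS2, FABP1 and ARG1 lie there, and SLC2A3, ALDOC, ENO2 and FABP7 lie above it.

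Genes that handle glucocorticoids and thyroid hormone were called in both directions. Of 22 tested genes of glucocorticoid and thyroid hormone handling 6 were higher in liver and 10 in PVWM, with a median of -0.23. Over all genes tested 81.2% were called, 38.3% higher in liver and 43.0% in PVWM, with a median of -0.09. The glucocorticoid receptor NR3C1 stood at 152, 111, 155 and 151 CPM in liver and 48.9, 53.4, 48.6 and 47.9 CPM in PVWM (log2 1.52 ± 0.12, edgeR adjusted p = 6.29e-07), and the mineralocorticoid receptor NR3C2, which also binds cortisol, at 5.86, 3.25, 5.52 and 3.67 CPM against 58.1, 44.6, 34.6 and 54.6 CPM (log2 -3.39 ± 0.23, edgeR adjusted p = 1.81e-07). HSD11B1, which regenerates active cortisol, stood at 97.8, 122, 232 and 86.3 CPM in liver, highest in 059, and 2.61, 3.35, 2.76 and 3.55 CPM in PVWM (log2 5.45 ± 0.34, edgeR adjusted p = 8.47e-08). Without that library the difference of HSD11B1 was 5.09. H6PD, which supplies its cofactor, was also highest in liver 059, at 353, 302, 602 and 333 CPM.

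The plasma carrier of cortisol, SERPINA6, had no count in PVWM and was at least 3431-fold higher in liver. Among direct receptor targets the direction varied. FKBP5, a receptor co-chaperone, was higher in liver (log2 1.45 ± 0.31, edgeR adjusted p = 0.00114) with values of 39.5, 63.3, 18.7 and 40.7 CPM in liver and 14.3, 16.4, 11.3 and 17.6 CPM in PVWM, while PER1 and ZBTB16 were higher in PVWM (log2 -0.55 ± 0.18 and -1.50 ± 0.34, edgeR adjusted p = 0.0166 and 0.00173). The call of PER1 was lost without liver 058 or liver 060 (log2 -0.44 and -0.38). TSC22D3 and DUSP1 were not called, at 110.5 ± 37.6 and 36.6 ± 6.06 CPM in liver against 105 ± 5.53 and 30.9 ± 8.17 CPM in PVWM (edgeR adjusted p = 0.72 and 0.269). With library totals only, 14 members were higher in PVWM and 6 in liver.

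The deiodinases, which activate or inactivate thyroid hormone, were split between the tissues. DIO1, the deiodinase of liver, stood at 599.6, 360, 392 and 392 CPM against 0.205, 0.464, 0.502 and 0.7 CPM (log2 9.84 ± 0.31, edgeR adjusted p = 4.71e-10). DIO2, which makes active hormone inside the brain, stood at 45.8, 82.7, 49.4 and 47 CPM in PVWM and 0 in liver (at least 1089-fold higher, edgeR adjusted p = 2.21e-07). The receptor THRA was higher in PVWM, at 207 ± 10.7 CPM against 25.1 ± 5.42 CPM (log2 -3.04 ± 0.16, edgeR adjusted p = 1.6e-08), and THRB was not called (log2 -0.05 ± 0.13, edgeR adjusted p = 0.752).

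Lists of shared cell machinery had medians from -0.35 to 0.18, against -0.09 over all genes tested, and their counts moved with the scaling. Over all genes tested 38.3% were higher in liver and 43.0% in PVWM. In the proteasome list 13 of 30 members were higher in liver, 7 in PVWM and none past 2-fold, with a median of 0.18, and with library totals only 0 were higher in liver and 21 in PVWM, with a median of -0.45. Ribosomal protein genes were higher in liver in 10 of 38 and in PVWM in 20, 9 of these past 2-fold, with a median of -0.35 and a lowest value of -4.33, and 5 and 28 with library totals only. Oxidative phosphorylation genes were higher in liver in 6 of 17 and in PVWM in 5, with a median of -0.05 and values from -2.12 to 2.75, and 1 and 13 with library totals only. That list holds 28 genes, of which these 17 were found under their symbols. Genes not found include UQCRC1, UQCRC2, COX4I1 and ATP5F1A, so the list covers only a part of oxidative phosphorylation. Of 19 common reference genes 9 were higher in liver and 8 in PVWM, 5 and 6 of them past 2-fold, among them GAPDH, a glycolytic enzyme often used for scaling, at 191 ± 30.3 CPM in liver and 638 ± 74.9 CPM in PVWM (log2 -1.74 ± 0.14, edgeR adjusted p = 7.48e-07). ACTB was called higher in PVWM by log2 -0.42 ± 0.14 with overlapping ranges (edgeR adjusted p = 0.0163), and the call was lost with the animal as a block (adjusted p = 0.0581) and without liver 057, 059 or 060 (adjusted p = 0.0555, 0.0503 and 0.0641).

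Abundant genes that were not called included SFPQ, EIF4G2, CBX5 and DDX5, RNA and chromatin proteins of most cells. SFPQ stood at 374, 425, 357 and 403 CPM in liver and 327, 398, 420.4 and 414 CPM in PVWM (log2 0.00 ± 0.11, edgeR adjusted p = 0.993). EIF4G2 and CBX5 differed by log2 0.03 ± 0.11 and 0.08 ± 0.11 (edgeR adjusted p = 0.803 and 0.52). With library totals only, these genes were called higher in PVWM.

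Single animals stood out in a few genes with no list. In liver, CA3, a muscle and fat carbonic anhydrase, stood at 805, 15.8, 415 and 576 CPM, low in 058, against 221, 281, 254 and 258 CPM in PVWM, and was called without liver 058 (log2 1.29) and not with it (log2 0.84 ± 0.73, edgeR adjusted p = 0.309). In PVWM, CA5A, a mitochondrial carbonic anhydrase of liver, stood at 0.205, 0, 73.7 and 0.25 CPM, high in 060, against 12.9, 11.4, 11.9 and 15.8 CPM in liver (log2 -0.51 ± 1.41, edgeR adjusted p = 0.746). Without PVWM 060 it was called higher in liver (log2 6.34). NXPH3 and RXFP1 were high in PVWM 058, at 5.63, 65.7, 5.72 and 10.7 and 3.74, 35.8, 4.07 and 11.6 CPM.

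Position along the genome was compared as a feature that no list used. Of 15866 tested genes placed in ARS-UI_Ramb_v3.0, 22.1% were past 2-fold higher in liver, and beside such a gene the next tested gene was also past 2-fold higher in liver in 32.3% of 3495 cases. On the PVWM side the corresponding shares were 28.5% overall and 35.3% of 4509. Neighbours can be duplicated or overlapping genes that share reads, and the difference between these shares was not tested. Runs past 2-fold higher in liver included ALB, AFP and AFM with 4 further genes, and SERPINA1 with SERPINA10 and SERPINA5 in a run of 9. The longest run on the PVWM side was of 18 genes, of which PCDHB7, a protocadherin, is the only one with a symbol.

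The tissue difference was then set against that in the ventilated lambs, which are other animals. In 1 edgeR fit of all 24 libraries 15585 genes were called between unventilated liver and PVWM. Of these, 93.2% had the same sign with surfactant and 92.6% with budesonide, and 84.9% and 83.7% were called in the same direction. The size of the difference changed for 5170 of 20010 genes (25.8%) with surfactant and for 5949 (29.7%) with budesonide. With the animal as a block the counts were 3755 and 4581. Both comparisons share the unventilated libraries. Every ventilated lamb also had surfactant, so ventilation and surfactant cannot be told apart here. Changes given with budesonide are those of ventilation, surfactant and budesonide together, against unventilated lambs. The ventilated lambs were 126 or 127 days old and the unventilated ones 127 or 128, so age and ventilation cannot be fully told apart, and the part of age and sex in these changes was not tested. For cell cycle genes, edgeR called 0 of 30 members as changed in either group (0 and 1 at an unadjusted p under 0.05 with surfactant and with budesonide). The list's median was 2.82, 2.76 and 3.13 in unventilated, surfactant and budesonide lambs. Its summed level ran from 778 to 3092 CPM between the unventilated livers, so changes within that spread could go uncalled. The erythroid list, ordered alike between livers, had 1 of 26 members called in each group, with medians of 6.23, 4.95 and 5.89. Other lists had more members called. Of 38 ribosomal protein genes 19 moved towards liver with surfactant and 20 with budesonide, and 0 towards PVWM. Their medians were -0.35, 0.4 and 0.26. Of 18 lipid, bile acid and drug metabolism genes 6 moved towards PVWM with surfactant and 9 with budesonide, and 1 towards liver in each group.

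Several metabolic genes departed from their unventilated difference. ARG2, the arginase of mitochondria, was higher in unventilated PVWM (log2 -0.98 in the fit of 24 libraries) and had tissue differences of 3.47 with surfactant and 5.08 with budesonide (edgeR adjusted p of the change = 5.48e-06 and 9.8e-08). MFSD2A, higher in PVWM without ventilation at -3.16, was higher in liver at 2.85 and 4.72 (edgeR adjusted p of the change = 7.9e-08 and 3.67e-09). Its mean level in liver was 1.99 ± 0.603 CPM in unventilated, 124 ± 94.1 CPM in surfactant and 349 ± 51.1 CPM in budesonide lambs, against 17.9 ± 1.12, 17.1 ± 6.28 and 13.2 ± 1.1 CPM in PVWM. SDS went from -0.41 to 6.15 and 8.32 (edgeR adjusted p of the change = 4.3e-07 and 1.68e-08).

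TUBB4A, a tubulin of oligodendrocytes and neurons, went from -0.77 (edgeR adjusted p = 0.0684, where the fit of 8 libraries gave 0.00101) to -4.90 and -5.07 (edgeR adjusted p of the change = 1.76e-05 and 7.09e-06). Its mean liver level was 386 ± 82.2 CPM in unventilated, 25.2 ± 16.7 CPM in surfactant and 19.1 ± 10.9 CPM in budesonide lambs, and its PVWM level 658 ± 55, 752 ± 173 and 643 ± 61.4 CPM. CPT1A, which admits fatty acids to mitochondria, widened its liver excess from 0.87 to 2.05 and 3.49 (edgeR adjusted p of the change = 0.00193 and 3e-07).

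**Figure D5:**
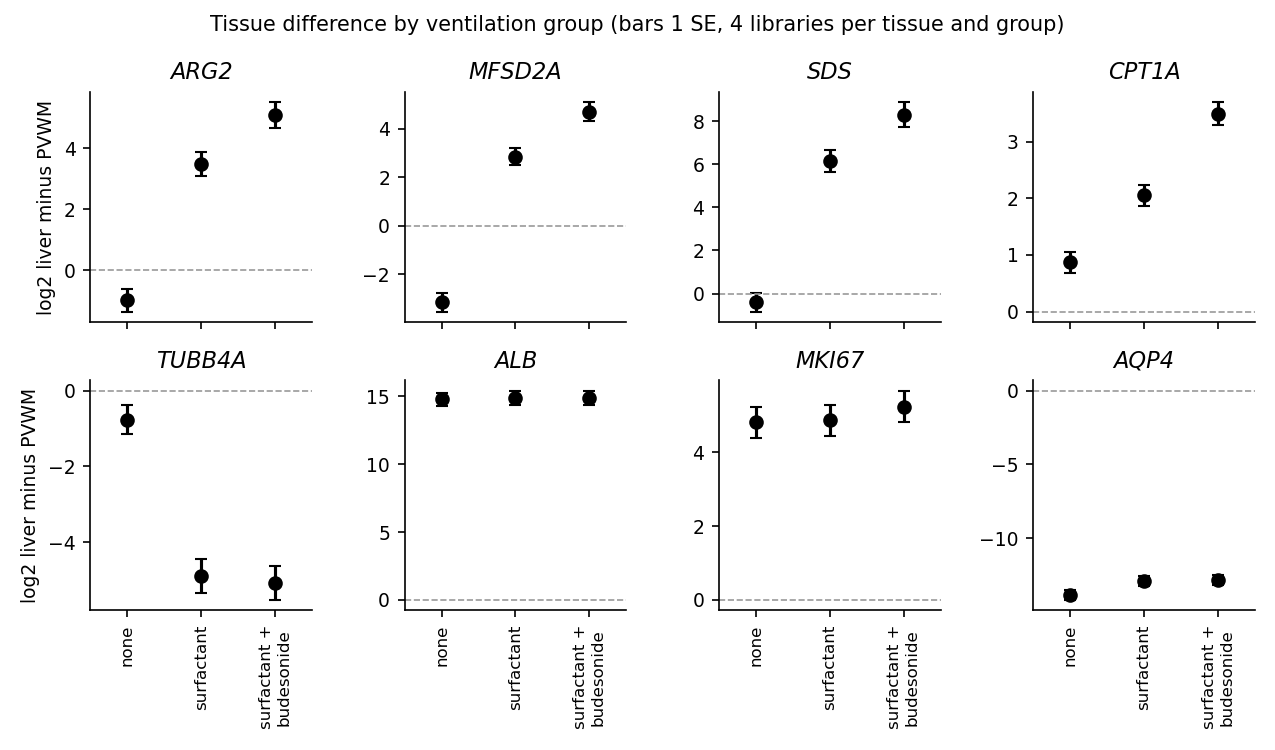
Log2 difference liver minus PVWM (y axis) in unventilated, surfactant and budesonide lambs (x axis, 4 libraries per tissue and group) for ARG2, MFSD2A, SDS, CPT1A, TUBB4A, ALB, MKI67 and AQP4. Points are edgeR estimates and bars 1 SE. The first 5 genes move away from their unventilated value, and ARG2, MFSD2A and SDS cross 0.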

How the data were processed

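Poly-A RNA from Trizol extracts was sequenced as paired ends, per the labels' protocols. The authors deposited 1 table of raw gene counts per tissue. Bowtie2, featureCounts and edgeR are named in the submitters' processing notes, and their versions, roles, genome build and annotation are not given in the sources used here. Each table has 27716 rows, of which 27693 are in both and were used. In the other 23 rows per table, gene names appear as dates in one table and as spreadsheet numbers in the other. A reference table (ARS-UI_Ramb_v3.0) gave 508 locus identifiers a symbol and was otherwise used for gene order only, and 11120 stayed unnamed. Without a stated strand setting, reads of a gene and an overlapping antisense gene cannot be told apart.

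Counts of the 8 unventilated libraries were filtered with filterByExpr, scaled by TMM and tested with edgeR 4.0.16 in R 4.3.3 by the robust quasi-likelihood test, with Benjamini-Hochberg adjustment over all 18672 genes and a threshold of 0.05. A minimum fold of 2 was tested with glmTreat. The SE is the absolute log2 difference over the square root of F. The biological coefficient of variation was 0.203. Changes with ventilation are interaction terms of a fit of all 24 libraries in 6 groups (20010 genes). Folds against a tissue with no count use 3 counts over its 4 libraries, and with 1 to 3 counts a 95% exact Poisson interval is given, which covers counting error only. For SYT1, with 3 or fewer liver counts, a fitted log2 difference is given without an interval. The tests were checked on simulated data.

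Animals 057, 058 and 060 gave both tissues, so their numbers pair the libraries. Their deviations from the tissue means correlated at 0.07 to 0.155 (3 pairs) against -0.12 to 0.061 between different animals. The reported fit has no block for the animal. Alternatives were DESeq2 1.42.0, other scalings and filters, the animal as a block, gestational age as a covariate, all 24 libraries and leaving out each library.

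The members and the 28 gene lists were chosen with earlier results of these data known. Named genes are the 12 with the largest differences in each direction among genes with a symbol, non-overlapping ranges and 10 or more CPM, the first 4 of each list and its up to 4 largest differences and up to 3 against its side, all paralogues, all genes of glucocorticoid and thyroid hormone handling, list members with 3 or fewer counts in a tissue, the 10 most abundant genes per tissue, the 8 most abundant that were not called with a log2 difference under 0.2, the 6 most variable per tissue, and the 5 smallest interaction p-values per direction, from which the text takes those its statements turn on. ALAS2, CDT1, EOMES, GOT1, HES1, NDRG2, PPARGC1A, PTBP2, SDS, SOX6, TMOD1, TREM2 and ZHX2, the genes shown across ventilation groups, the loci of the globin clusters and the genes of runs along the genome fall outside it and were chosen after their values were seen. Some genes that the rule chose are not reported here.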

Additional observations from a re-analysis of the deposited data

Results flagged for a closer look

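In groups of 4 libraries, a value stands apart here where its gap to the nearest of the others, over the group's range, exceeds Dixon's 95% critical value, which chance gives in about 1 in 20 groups. The named genes include the most variable genes of each tissue, which were chosen for their spread, CA5A, TTR and NXPH3 among those below. Of 355 groups tested, for the named genes and the lists' summed levels in each tissue, 18 held such a value, near the number that chance alone gives, 11 of them the highest and 7 the lowest. PVWM 060 accounted for 8, PVWM 057 and PVWM 058 for 3 each, liver 059 for 2 and liver 057 and liver 058 for 1 each.

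In PVWM 060 the myelin genes MBP (204 CPM against 594 to 661 in the other PVWM libraries), MOBP (85 against 307 to 342) and MOG (3.06 against 8.5 to 9.6) stood low, as did the summed myelin list at 865.4 CPM against 2126 to 2328. FABP5 (39.4 against 49.4 to 49.7 CPM) and KIT (77.8 against 110 to 115 CPM) were also low in that library, and TTR (117 against 2.25 to 6.34 CPM) and CA5A (73.7 against 0 to 0.25 CPM) were high. In PVWM 058 the high values were those of DIO2 (82.7 against 45.8 to 49.4 CPM), NXPH3 (65.7 against 5.63 to 10.7 CPM) and TMOD1 (61.8 against 25.4 to 28.6 CPM). In PVWM 057 GAPDH (750 against 589 to 612 CPM), the summed proteasome list (1438 against 1365 to 1370 CPM) and the summed ribosomal protein list (3761 against 3106 to 3157 CPM) were high.

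In liver, FABP1 and GOT1 were high in 059, at 333 CPM against 232 to 241 and 251 CPM against 101 to 126. DIO1 was high in 057, at 600 CPM against 360 to 392, and NR3C1 was low in 058, at 111 CPM against 151 to 155.

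The tissue difference itself differed between ventilated and unventilated lambs, by the interaction term of the edgeR fit, for 5170 genes with surfactant and 5949 with budesonide. The change in log2 difference, ventilated minus unventilated, was 4.46 with surfactant and 6.06 with budesonide for ARG2, 6.02 and 7.88 for MFSD2A, 6.56 and 8.72 for SDS, and 1.18 and 2.62 for CPT1A, each towards liver. For TUBB4A it was -4.13 and -4.31, towards PVWM.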

How the results depend on the processing

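Counts of genes past each threshold depended on the scaling and on the count minimum. With library totals as the only scaling, 4631 genes were higher in liver in place of 7148, while 10741 in place of 8020 were higher in PVWM. The share of calls higher in liver went from 47.1% to 30.1%, and past 2-fold from 41.9% to 27.5%. With at least 10 counts required in every library, 2545 genes in place of 3998 were past 2-fold higher in liver and 2962 in place of 5540 in PVWM, by construction, since genes absent from 1 tissue are removed. Genes detected in 1 tissue and with at most 3 counts in the other numbered 317 for liver and 1022 for PVWM; with 0 counts required in the other tissue they were 143 and 516, and with 50 counts in every detecting library 174 and 625. DESeq2, the other scalings and filters, the covariate, the 24-library fit and the replicate block kept the counts of calls within 1.5 times, with 6844 and 7683 genes called in the paired fit 3935 and 5417 past 2-fold, and 3755 and 4581 whose tissue difference changed with surfactant and budesonide, the lowest of the alternatives.

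Leaving out each library in turn gave 6985 to 7389 genes higher in liver, 7869 to 8075 higher in PVWM, 4005 to 4196 and 5487 to 5671 past 2-fold, 325 to 382 and 1044 to 1181 in the detected sets, and 4505 to 4905 and 5290 to 5701 whose tissue difference changed with surfactant and budesonide.

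Of 190 named genes, 169 were called, where 81.2% of all genes tested were. Under every alternative run for them 160 kept their call and direction, and 9 lost it under at least 1. Many of the named genes were chosen for large differences in these same data, so their kept calls are no separate support. Of the 21 not called, 17 were called under at least 1. Among genes called under 1 of the 2 settings compared, library totals turned the sign of CBX5 (-0.55), EIF4G2 (-0.6), ENO1 (-0.49), HES1 (-0.44), RELN (-0.13) and TSC22D3 (-0.54), and leaving out PVWM 060 that of CA5A, whose difference ran from -0.93 to 6.34 over the libraries left out. Other genes turned sign without a call under either setting, among them SOX6 (-0.06) and TMOD1 (-0.31) with library totals and CA5A (2.2) with the animal block. Apart from ACTB, LIN28B, LRAT and MAG, which lost their call, and SOX6 and TMOD1, which gained one, the replicate block changed no call of a named gene. All 10 named changes with ventilation, in genes chosen after their values were seen, kept their call. The causes were not tested. Depth limits the genes at 3 or fewer counts, whose folds are bounds or wide intervals, and 4 animals per tissue limit small differences.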

Other observations

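Among the runs along the genome on the liver side were the following, whose genes are in no list and are named after their values were seen. The urate and phosphate transporter genes SLC17A1, SLC17A2, SLC17A3 and SLC17A4 were part of a run of 21 neighbours past 2-fold higher in liver. SLC17A2 stood at 321, 290, 330 and 312 CPM in liver (animals 057, 058, 059 and 060) with 2 counts over the 4 PVWM libraries (edgeR adjusted p = 5.95e-11). SLC17A4 stood at 140, 67.7, 124 and 86.8 CPM and SLC17A3 at 12.5, 10.7, 33.8 and 7.97 CPM, highest in 059, and neither had a count in PVWM.

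The anterior homeobox genes HOXA2, HOXA3, HOXA4 and HOXA5, which set position along the body axis, stood in a run of 7. Their levels in liver were low, from 1.59 to 4.26 CPM over the 4 livers. HOXA2 and HOXA3 had no count in PVWM, a tissue of the forebrain, and HOXA4 and HOXA5 reached no more than 0.0516 CPM there. The C-type lectin receptor genes CLEC1B, CLEC7A, CLEC9A and CLEC12A, of platelets, dendritic cells and macrophages, stood in another run of 7. CLEC1B was at 32.5, 14.3, 35 and 23.8 CPM and CLEC9A at 24.6, 8.09, 32.4 and 16.6 CPM in liver, both highest in 059 and lowest in 058, the reverse of the erythroid genes at both ends. PVWM values of both were at most 0.25 CPM.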
